A study of Saccharomyces cerevisiae with 95 samples.

Results

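The 3 shortest chromosomes of budding yeast, chromosomes I, III and VI, carried 230 of the 2385 listed binding summits of Red1 in meiotic prophase. The members were all summits that the deposited list places on these chromosomes, and the 2155 summits of the other 13 chromosomes were the comparison. Size of the chromosome, not the signal, chose the members. A summit is the single base at which the pooled chromatin immunoprecipitation (ChIP) signal of a bound stretch was highest.

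Red1 is a structural protein of the meiotic chromosome axis, the proteinaceous core at which chromatin loops are anchored. It works with the axis protein Hop1 and with cohesin that contains Rec8, and it supports the formation of DNA breaks by Spo11 and their repair from the homologous chromosome. Every pair of homologous chromosomes needs at least 1 crossover to separate properly, which leaves a short chromosome little length in which to make it. Short yeast chromosomes are known for more breaks and crossovers per unit of length than long ones, and for high levels of axis proteins.

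The study followed axis proteins, the cohesin loader and condensin on meiotic chromosomes of SK1, a yeast strain that enters meiosis quickly and in near synchrony. The list came from wild type cultures fixed with formaldehyde at 3 hours in sporulation medium. It was made from 4 anti-Red1 libraries set against 4 input libraries of unenriched chromatin. Of the anti-Red1 libraries, 3 carry the genotype label H119, and 1 carries H6408, the label of the strain with tagged condensin (SMC4-PK9), as does 1 of the inputs, although the anti-Red1 library is titled wild type.

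Each summit has 1 score, the −log10 of a p or q value of enrichment over input, and the labels tie all 8 libraries to the 1 list. It has no value per library and no read counts, so the depth behind a score is unknown and no spread between cultures can be given. Where an error is given, it is the standard deviation (SD) over chromosomes or a 95% interval that covers counting error only. Positions are 1-based and refer to the assembly that the peak names tag as SK1Yue. No sequence or gene annotation of that assembly was used here, so sites are given by position alone. A chromosome's span is the distance between its outermost summits, so the stretches beyond them are left out. Density is the number of summits per 100 kb of span.

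Summits were called strong sites at a score of at least 1000, a level reached by 422 summits of the list. By this rule 48 of the 230 summits on chromosomes I, III and VI were strong (20.9%, 95% Wilson interval 16.1 to 26.6%). On the other 13 chromosomes 374 of 2155 were strong (17.4%, interval 15.8 to 19.0%), and the share over the whole list was 17.7%. The intervals overlapped, and the share of strong sites among all summits was near the background. The number of strong sites was almost the same on the 3 short chromosomes, with 15 on chromosome I, 17 on chromosome III and 16 on chromosome VI.

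**Figure D1:**
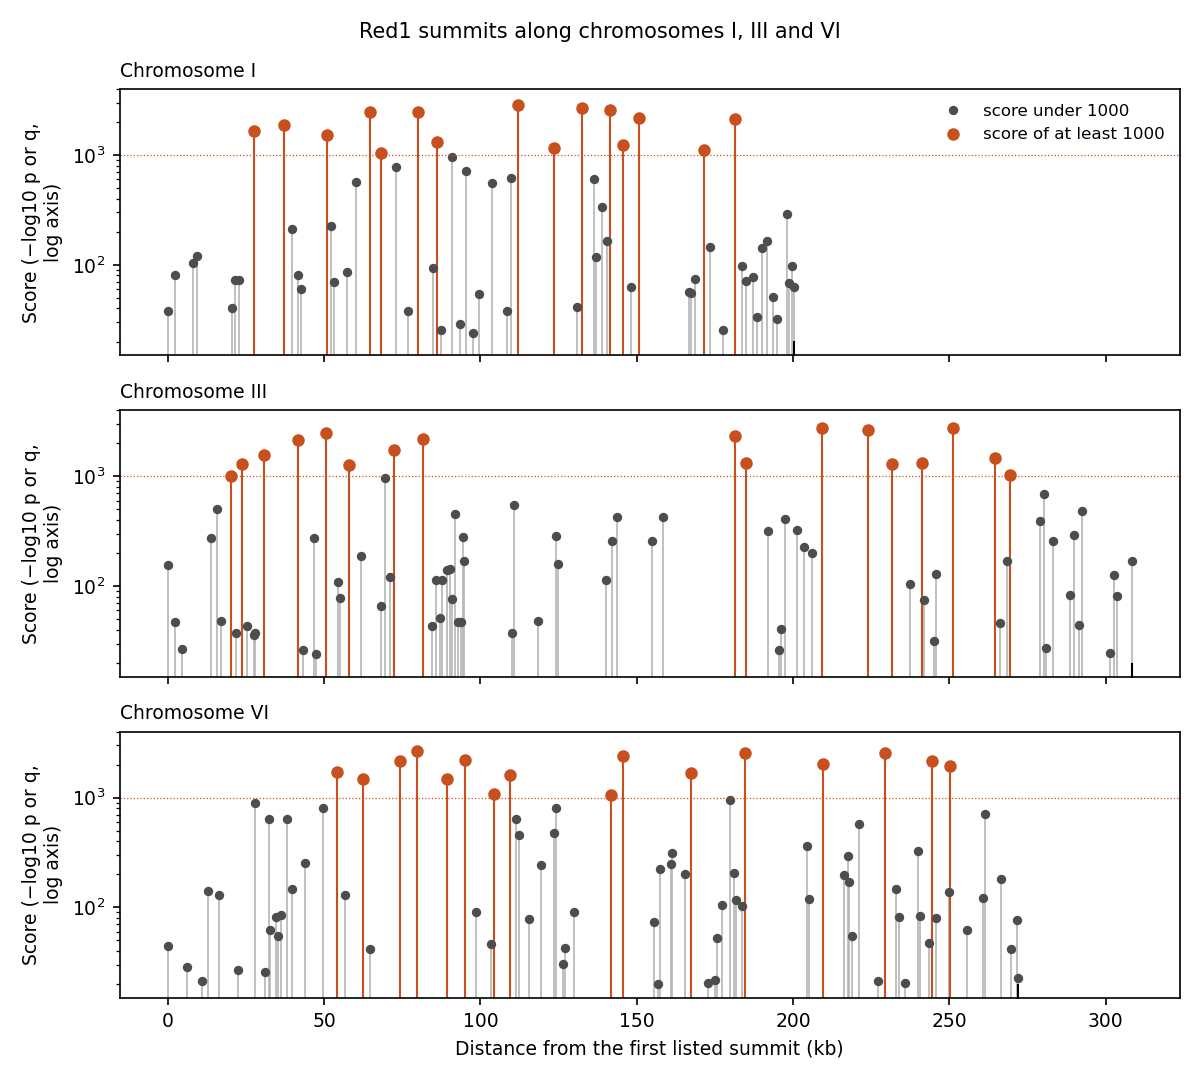
Score of each Red1 summit (−log10 of p or q, log axis) against its distance from the first listed summit in kb, on chromosomes I, III and VI. Orange points are the 15, 17 and 16 strong sites, grey points the other summits, and the black tick marks the last summit; chromosome III has no orange point over 99.7 kb of its middle.

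Chromosome I, the shortest, had 64 summits over 200.4 kb, between positions 18077 and 218519. Its 15 strong sites all lay between positions 45675 and 199681. The site at position 130253 had a score of 2845, the second highest of the whole list. The next 4 on this chromosome scored 2707 at position 150532, 2572 at position 159692, 2466 at position 98270 and 2452 at position 82909. Of these 5 sites, 3 formed part of the right-hand row of strong sites, in which 6 strong sites followed one another from position 130253 to position 168886. The longest distance without a strong site was 26.0 kb, between positions 104252 and 130253.

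Along chromosome I, 9 of the 10 full 20 kb bins, counted from the first summit, held at least 1 strong site. The exception was the first bin, positions 18077 to 38076, in which 4 summits reached no more than a score of 121. The most crowded bin lay at the opposite end, between positions 198077 and 218076. It held 12 summits with a median score of 87.6, of which 8 scored under 100 and 1 was strong. Of the chromosome's summits, 31 (48.4%) scored under 100, a share of weak summits above the 31.4 to 44.0% of the other 13 chromosomes; 37.8% of the whole list did so. Chromosome I thus had many strong and many weak summits for its length, and its density of intermediate summits, 8.98 per 100 kb, lay inside the 7.39 to 12.5 of the longer chromosomes.

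The longest distance between any neighbouring summits on chromosome I was 15.9 kb, from position 168886 to position 184809. It separated a site that scored 2189 from one that scored 57.0. The next longest were 11.4 kb to the right of the site at position 130253, and 11.2 kb between positions 27466 and 38644. The closest pair lay 562 bp apart, at positions 216283 and 216845, inside the crowded bin at the right end.

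Chromosome III had 83 summits over 308 kb, between positions 14209 and 322520, and its strong sites stood in 2 blocks. The left block held 8 strong sites between positions 34396 and 95826, and the right block held 9 between positions 195515 and 283634. Between the blocks, 99.7 kb (32.3% of the span) had no strong site. The highest scores were 2740 at position 223657, 2737 at position 265371 and 2667 at position 238317, all in the right block. A score of 2463 at position 64831 was the highest of the left block, and 2313 at position 195515 marked the inner edge of the right block. The outer limits of the middle stretch were set by the strong sites themselves, so its lack of strong sites is a description.

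The middle of chromosome III was not free of Red1 summits. It held 22 of them (22.1 per 100 kb), with scores between 37.6 and 548 and a median of 142. The piece to its left had 27 summits (33.1 per 100 kb) and the piece to its right 34 (26.8 per 100 kb). Summits of the middle were unevenly placed. The bin from position 94209 to position 114208, at its left edge, held 13 summits, the strong site at position 95826 included, and was the most crowded of the 564 full 20 kb bins in the list. The 80 kb that followed, up to position 194208, held 10 summits, none above 548.

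The 3 longest distances on chromosome III all fell in this middle stretch. The longest was 22.9 kb, from position 172629 to position 195515, and covered the 1 full bin of the 3 chromosomes that held no summit. The others were 15.3 kb from position 138959 and 15.2 kb from position 109104. The closest pair, 479 bp apart at positions 68803 and 69282, lay in the left block. Earlier work on this chromosome described recombination-rich stretches on both arms and a recombination-poor centre around the centromere. The centromere's position in the authors' assembly was not used here.

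Chromosome VI had 83 summits over 272 kb, between positions 9766 and 281840. Its 16 strong sites lay between positions 64030 and 260141, and 8 fell on each side of its midpoint. The highest scores were 2670 at position 89545, 2576 at position 239303, 2559 at position 194529, 2387 at position 155466 and 2191 at position 104731. A row of 8 strong sites ran from position 64030 to position 119098 with no distance above 11.9 kb. A distance of 32.4 kb followed, the longest between strong sites on this chromosome. The remaining 8 sites were spread up to position 260141, 21.7 kb short of the last summit.

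Left of its first strong site, chromosome VI had a crowded stretch of summits below the strong class. The 20 kb bin from position 29766 to position 49765, next to the end bin with its 5 summits, held 10 summits, the most of this chromosome, with a highest score of 891 and 6 scores under 100. The closest pair of the chromosome, 401 bp apart at positions 42044 and 42445, lay there. The full bin with the fewest summits, 3 between positions 89766 and 109765, held 2 strong sites. The bin with the most summits thus had no strong site, and the bin with the fewest had 2. The longest distances between summits were 19.7 kb from position 194529, 11.8 kb from position 139693 and 9.84 kb from position 74315.

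The comparison with the longer chromosomes asked whether strong sites, like summits in general, were dense on the short chromosomes. Chromosome I had 7.48 strong sites per 100 kb, chromosome VI 5.88 and chromosome III 5.51. The other 13 ranged from 2.59 on chromosome XII to 4.32 on chromosome IX, the next shortest, so the ranges did not overlap. The means were 6.29 ± 1.05 (SD, 3 chromosomes) on the short chromosomes and 3.54 ± 0.478 (SD, 13 chromosomes) on the longer ones. The difference of 2.75 per 100 kb gave p = 0.00179 in a two-sided exact permutation test over the 560 ways to choose 3 of 16 chromosomes, the smallest p it can give. The Benjamini-Hochberg adjusted p over 6 such exact permutation tests was 0.00357. For all summits together the means were 29.8 ± 2.58 and 20.5 ± 1.69 per 100 kb, with the same p and adjusted p in that exact permutation test. Chromosomes I, VI and III had 31.9, 30.5 and 26.9 summits per 100 kb. The next in span, chromosomes IX and VIII, had 24.9 and 23.0, above the 19.0 to 20.8 of the remaining chromosomes. The counting intervals of chromosome III (21.4 to 33.4) and chromosome IX (20.2 to 30.4) overlapped.

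Short chromosomes hold fewer summits and so vary more by counting than long ones. On simulated lists with no difference in summit density the test passed the threshold too often, so its p-values are too small. When each difference was divided by its standard error before permuting, p for strong sites and for all summits stayed at 0.00179 in the exact permutation test. That form also passed too often on the simulated lists, though less often, so its p-values are too small as well. Counted over the pooled spans of 781 kb and 10665 kb, strong sites were 1.75 times as dense on the short chromosomes (95% exact binomial interval 1.27 to 2.37, counting error only). The interval of chromosome III alone, 3.21 to 8.83 strong sites per 100 kb, overlapped that of chromosome IX, 2.52 to 6.92. No test compared these 2 chromosomes with each other, so whether they differ was not determined.

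**Figure D2:**
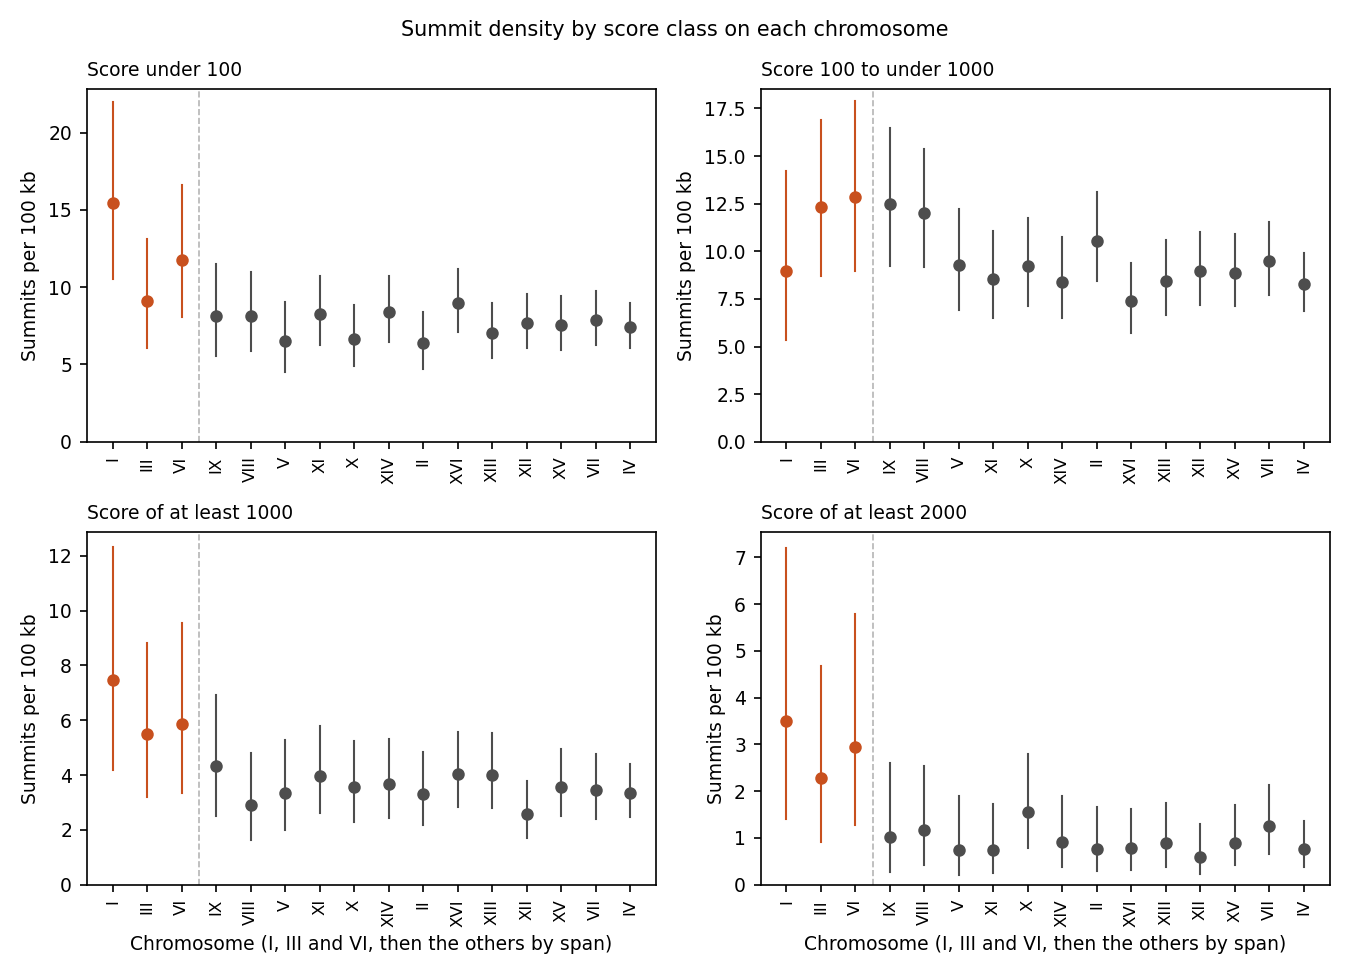
Summits per 100 kb of span in 4 score classes (the fourth lies within the third) on each chromosome; points are densities and bars are 95% exact Poisson intervals, which cover counting error only. Chromosomes I, III and VI (orange) lie above all 13 others (grey) in 3 of the classes and overlap them between 100 and 1000. Under a score of 100, chromosome III lies only just above chromosome XVI.

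The excess was also counted by score class. Weak summits, with scores under 100, were 1.53 times as dense on the short chromosomes as on the others (interval 1.22 to 1.91). Intermediate summits were 1.28 times as dense (1.02 to 1.59). Sites with a score of at least 2000 were 3.10 times as dense (1.86 to 4.96). The intervals of the intermediate class and of the class from 2000 did not overlap. That of the weak class overlapped those of the strong class and of the class from 2000. These ratios are descriptions with counting intervals, and the differences between classes were not tested. In the weak class, chromosomes I and VI had 15.5 and 11.8 summits per 100 kb, while the 9.08 of chromosome III lay close to the 8.96 of chromosome XVI.

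The highest class was where the short chromosomes held the largest share of the list. They hold 6.82% of the summed span, 9.64% of the summits and 11.4% of the strong sites. Of the 119 summits with a score of at least 2000, 22 (18.5%) lay on them, 7 on chromosome I, 7 on chromosome III and 8 on chromosome VI. As a share of their own summits this was 9.57% (Wilson interval 6.40 to 14.1%), against 4.50% (3.70 to 5.46%) on the other 13 and 4.99% in the whole list. Among the 50 highest scores of the list, 12 were on chromosomes I, III and VI, and among the 20 highest, 6.

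In density, sites from 2000 reached 3.49 per 100 kb on chromosome I, 2.94 on chromosome VI and 2.27 on chromosome III. The highest of the other 13 was chromosome X, at 1.56 per 100 kb. Median scores ran the other way, at 146 over the 230 members and 172 over the others, and the upper quartiles were 676 and 651. The upper tail lay higher, with a 90th percentile of 1902 on the short chromosomes and 1503 on the others. No test was made of scores over the members.

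As a share of a chromosome's own summits, strong sites averaged 21.1% ± 2.14 (SD, 3 chromosomes) on the short chromosomes and 17.3% ± 2.24 (SD, 13 chromosomes) on the longer ones. The difference of 3.76 percentage points gave p = 0.0232 in the exact permutation test and an adjusted p of 0.0279. It rested on chromosome I, where the share was 23.4%. Without that chromosome the difference was 2.57 percentage points (exact permutation p = 0.152). With sites counted as strong from a score of 500 the difference was -0.17 percentage points, in the opposite direction.

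By the median, neighbouring strong sites lay about 10 kb apart on each short chromosome, though single distances ranged from 3.26 to 99.7 kb. The median distance was 9.76 kb on chromosome I, 9.46 kb on chromosome III and 9.63 kb on chromosome VI. On the other 13 chromosomes the medians ran from 14.0 kb on chromosome IX to 28.7 kb on chromosome V, with no overlap. The means of these medians were 9616 ± 154 bp (SD, 3 chromosomes) and 20593 ± 4479 bp (SD, 13 chromosomes), a difference of -10978 bp with an exact permutation p of 0.00357 (adjusted 0.00536). With strong sites defined from a score of 500 the difference was -4925 bp (exact permutation p = 0.00179). From a score of 1500 it was -15143.5 bp and no longer passed the threshold (exact permutation p = 0.184).

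**Figure D3:**
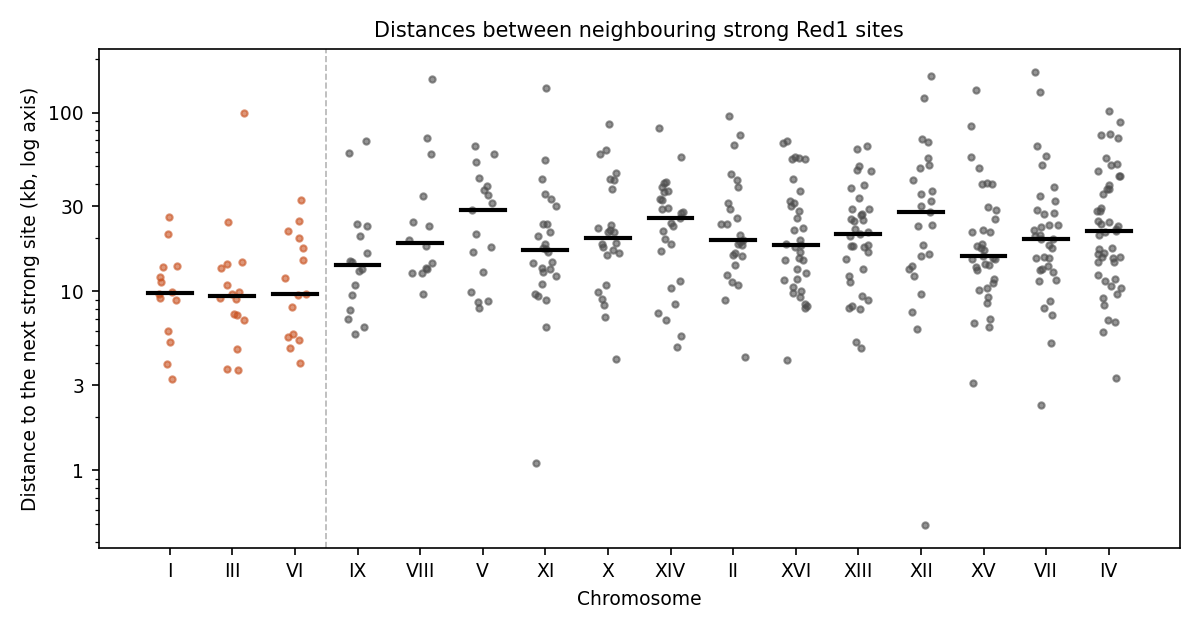
Distance from each strong site to the next on the same chromosome (kb, log axis), with the median of each chromosome as a black bar; points are spread sideways at random. The medians of chromosomes I, III and VI (orange) lie between 9.46 and 9.76 kb, below the 14.0 to 28.7 kb of the other 13 (grey).

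Of the 45 distances between neighbouring strong sites on the short chromosomes, 35 (77.8%) were at most 15 kb. On the other chromosomes 122 of 361 (33.8%) were. Distances over 40 kb occurred once on the short chromosomes, in the middle of chromosome III, and 68 times (18.8%) on the others. The 99.7 kb stretch of chromosome III was long for its chromosome but not for the list, in which 6 longer chromosomes had a longer one, up to 169 kb on chromosome VII. Chromosomes I and VI, at 26.0 and 32.4 kb, had the 2 shortest such maxima of all 16 chromosomes. A short chromosome has fewer distances from which to draw a maximum. The limits of 15 and 40 kb were set after sight of the values.

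Strong sites on the short chromosomes were kilobases apart. The closest 2 were 3.26 kb apart, at positions 82909 and 86165 of chromosome I. Another summit of any score lay within 2 kb of 18 of the 48 strong sites (37.5%), and of 121 of the 374 on the other chromosomes (32.4%). A median of 1.5 other summits stood between neighbouring strong sites on chromosomes I and III and 2 on chromosome VI, against medians of 2 to 4 on the other chromosomes. Removing summits within 500 bp of a higher one left the difference in strong site density at 2.76 per 100 kb.

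Summits with no other within 3 kb made up 44 of the 230 members (19.1%) and 634 of 2155 summits elsewhere (29.4%). Of these isolated summits 43.2% were strong on the short chromosomes and 31.1% on the others. At the other extreme, 75 members (32.6%) had a neighbour within 1 kb, against 774 summits (35.9%) on the other chromosomes. As a share of the pooled summits, neighbours this close were thus not more frequent on the short chromosomes, though chromosomes III and VI each went the other way. Strong sites made up 5.33% of such summits on the short chromosomes and 6.07% on the others. Isolated summits held the larger share of strong sites on both sets of chromosomes. Chromosome I had few close neighbours, 10 of its 64 summits (15.6%). Chromosomes III and VI had 37.3% and 41.0%, both above the 35.9% of the other chromosomes.

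By the median distance, neighbouring summits of any score were closer together on the short chromosomes. The median distance was 2112 bp on chromosome III, 2343 bp on chromosome I and 2395 bp on chromosome VI. The other 13 chromosomes had medians from 2598 bp on chromosome IX to 4240 bp on chromosome XIII. The means were 2283 ± 151 bp (SD, 3 chromosomes) and 3410 ± 423 bp (SD, 13 chromosomes), with an exact permutation p of 0.00179 (adjusted 0.00357). Distances and densities come from the same summits, so this test is not independent of the density test. No difference was detected in the share of empty 10 kb bins. Such bins made up 5.00% on chromosome I, 7.41% on chromosome VI and 16.7% on chromosome III, an average of 9.69% ± 6.16 (SD, 3 chromosomes). The other 13 averaged 11.8% ± 3.23 (SD, 13 chromosomes), and the exact permutation p was 0.396 (adjusted 0.396). That comparison turned on the chromosomes included and on the width of the bins: without chromosome III the difference of -2.12 percentage points became -5.61 (exact permutation p = 0.0476), and with 5 kb bins it was -12.0 (exact permutation p = 0.00714). It turned to the opposite direction without chromosome I, at 0.221 (exact permutation p = 0.962), and with 20 kb bins, at 1.74 (exact permutation p = 0.188).

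Crowded bins were more frequent on the short chromosomes than elsewhere. In 20 kb bins, 5 of 38 (13.2%) held 9 or more summits, against 7 of 526 (1.33%) on the other chromosomes. At least 2 strong sites stood in 16 of the 38 bins (42.1%) and in 69 of 526 (13.1%). Bins without any strong site made up 26.3% and 43.3%. Chromosome III accounted for 6 of the 10 such bins on the short chromosomes. Bins of 1 chromosome share their chromosome and list, and the limit of 9 was set after sight of the values, so these shares carry no test.

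**Figure D4:**
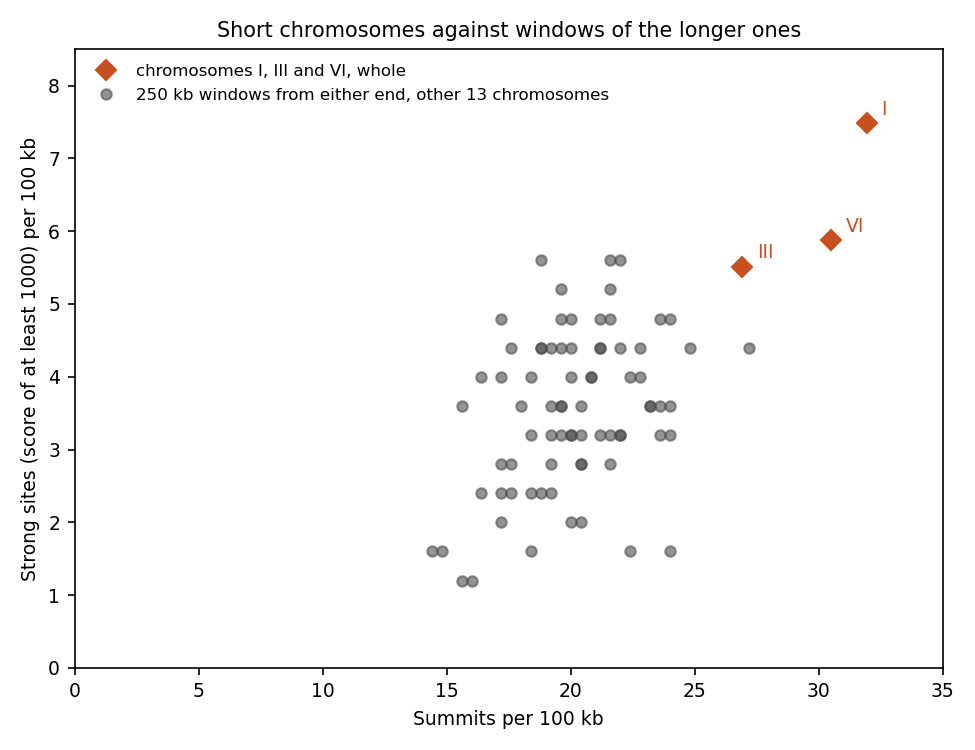
Strong sites per 100 kb against all summits per 100 kb, for chromosomes I, III and VI whole (orange diamonds) and for 250 kb windows of the other 13 chromosomes, 38 counted from the left end and 38 from the right (grey circles). At 27.2 summits per 100 kb, 1 window, on chromosome IX, lies just right of chromosome III, and 3 windows reach the strong site density of chromosome III.

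A short chromosome might match some stretch of a long one, so windows of 250 kb, near the length of the short chromosomes, were laid along the other 13. They were counted from each end in turn, 38 in either direction, so that no stretch was left out. The 76 windows held from 14.4 to 27.2 summits per 100 kb, with a median of 20.0. The highest, positions 161836 to 411835 at the right end of chromosome IX, was the 1 window that reached the 26.9 of chromosome III, the least dense of the short chromosomes. Its right-hand part was denser still, with 46 summits over 143 kb from position 268669 (32.1 per 100 kb), close to the 31.9 of chromosome I as a whole. For strong sites the windows ranged from 1.20 to 5.60 per 100 kb with a median of 3.60, and 3 of them reached the 5.51 of chromosome III.

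Windows moved in steps of 1 kb gave the same limit for summits, 27.2 per 100 kb, and a highest strong site density of 6.40, on chromosome X. Chromosome IX was the 1 chromosome with such a window at or above the summit density of chromosome III. A window at or above its strong site density was found on 4 of the 13 chromosomes, and a window that reached both on none. Stretches as rich in either measure as chromosome III were therefore present on longer chromosomes. The summit densities of chromosomes I and VI, 31.9 and 30.5 per 100 kb, lay above every 250 kb window. For strong sites this held for chromosome I alone, at 7.48 per 100 kb. The 5.88 of chromosome VI was exceeded by moved windows on chromosomes X and XVI. Chromosome I, with a span of 200.4 kb, is shorter than these windows, and windows of its own length were not counted.

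Chromosome ends, taken as the outermost summits, held few strong sites. Within 25 kb of an end there were 53 members (23.0% of the 230), or 8.83 per end, with a median score of 80.5 and 4 strong sites. On the other chromosomes these windows held 162 summits (7.52% of theirs), or 6.23 per end, with a median score of 116 and 12 strong sites. Such windows cover a larger part of a short chromosome, so the percentages are not comparable. By definition each window starts on a summit. The outermost strong site lay a median of 24.6 kb from the end over the 6 ends of the short chromosomes (range 18.8 to 54.3 kb) and 28.1 kb over the 26 other ends (range 1.50 to 85.9 kb), which overlapped.

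With the outermost 50 kb left out at both ends, the densities were 27.7 and 20.0 summits per 100 kb on the short and the other chromosomes. Strong sites then reached 7.60 per 100 kb on the short chromosomes and 3.66 on the others, a difference of 3.93 (exact permutation p = 0.00179). The difference in strong sites over whole spans was 2.75, so leaving out the ends did not reduce it. For all summits the difference fell from 9.26 per 100 kb over whole spans to 7.73 (exact permutation p = 0.00179). Spans leave out the stretches beyond the outermost summits. Counted from base 1, which adds the left stretch only, both differences were smaller, at 8.10 summits and 2.48 strong sites per 100 kb (exact permutation p = 0.00179 for each).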

How the data were processed

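ChIP and input libraries of SK1 cultures at 3 hours were processed by the authors. Reads were mapped with Bowtie and summits called with MACS2 2.1.1, per the submitters' processing notes. The deposited list gives 1 −log10 value of p or q per summit, from pooled replicates; its name states a minimum of 20, and the smallest value was 20.0. Options, the Bowtie version and which of p or q is given are not given in the sources used here. The other 87 of 95 samples were not analysed here.

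From the list, densities, distances and bins were computed per chromosome (Python 3.11.15, numpy 2.4.6, pandas 2.3.3, scipy 1.17.1) and compared by two-sided exact permutation over chromosomes, the only units with a spread, at a threshold of 0.05. The 6 tests form 1 family and use the same summits, so they are not independent. The test was checked on simulated lists. With no planted difference in summit density it passed the threshold too often, so a statistic divided by its standard error was added. That statistic passed less often but still too often. The members, classes and tests were chosen with earlier results of these data known; the bin, window and distance limits followed sight of the values. Sites named are the 5 highest scores, longest and shortest distances, outermost summits and extreme bins of each short chromosome, and the limits of blocks of strong sites. Alternatives changed score minimums, strong site scores, spans, ends, bins and chromosomes included.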

Additional observations from a re-analysis of the deposited data

How the results depend on the processing

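No paired analysis was possible because the list pools its replicates and holds no value per library; leaving out a replicate was impossible for the same reason. Of 59 alternatives to the 6 tests, 51 changed neither direction nor call. All alternatives did so for summit density (differences of 5.39 to 10.7 per 100 kb), strong site density (2.07 to 3.93 per 100 kb) and the median distance between summits (-2190 to -1041 bp). The share of strong sites, with a main difference of 3.76 percentage points, was 2.57 without chromosome I and -0.17 with strong sites from a score of 500. The median distance between strong sites differed by -4925 bp with strong sites from a score of 500 and by -15143.5 bp, short of the threshold, from a score of 1500. The percentage of empty bins, with a main difference of -2.12, was 0.221 without chromosome I and 1.74 with 20 kb bins, both in the opposite direction; it passed the threshold at -5.61 without chromosome III, -11.0 at a score minimum of 100 and -12.0 with 5 kb bins. The cause of these changes was not tested. Scores from pooled reads of unknown depth have no meaning outside this list.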

Other observations

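Peak numbers in the list run along each chromosome, and numbers missing between the first and last summit of a chromosome mark called peaks that the list does not hold. Missing numbers made up 23.8% on chromosome I (20 of 84), 20.2% on chromosome VI (21 of 104) and 17.0% on chromosome III (17 of 100). On the other 13 chromosomes they made up 10.3 to 17.3%, so that chromosomes I and VI lay above that range and chromosome III inside it.

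Strong sites were evenly divided between the left and right of the midpoint of each short chromosome, with 7 and 8 on chromosome I, 8 and 9 on chromosome III, and 8 and 8 on chromosome VI. Weak summits were divided as 15 and 16 on chromosome I, 18 and 10 on chromosome III, and 16 and 16 on chromosome VI.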
